A study of Homo sapiens with 8 samples.

Results

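Loss of mir-141 alone was examined in SK-BR-3, a human breast cancer cell line known for its ERBB2 amplification, by setting each mir-141 knockout clone against the wild-type cells of its own experimental set. This comparison took in 4 of the 8 libraries of the series: wild type and mir-141 knockout clone 23 in set 1, and wild type and mir-141 knockout clone 10 in set 2. It was described over all 9245 RefSeq mRNA entries of the deposited table, which carry 9241 distinct symbols. The knockouts had been made with TALENs, designed nuclease pairs that cut a chosen DNA sequence, and each knockout library was a separate clone, so that the effect of the knockout and any other property of a clone cannot be told apart within a group. The other 4 libraries were clones lacking mir-200c (11 in set 1, 29 in set 2) or both microRNAs (55 in set 1, 61 in set 2), all SK-BR-3, and no further treatment, passage or culture time is given in the labels.

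MicroRNAs pair through their seed, a short stretch near the 5′ end, with sites in the 3′ untranslated region (UTR) of messenger RNAs, and thereby lower the stability and translation of those messages. The mir-200 family holds 5 microRNAs in 2 seed groups and is known in epithelial cells for repressing ZEB1 and ZEB2, which drive the mesenchymal state. Removal of a microRNA is therefore followed at the messages that carry its seed site.

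The mature sequences show which family members share the seed of the removed microRNA. They are given 5′ to 3′ from RefSeq (GRCh38.p14), with bases 2 to 8, the seed, in capitals:
miR-141-3p: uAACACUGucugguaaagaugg
miR-200a-3p: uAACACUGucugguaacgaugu
miR-200c-3p: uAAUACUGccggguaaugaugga
miR-200b-3p: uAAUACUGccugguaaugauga
miR-429: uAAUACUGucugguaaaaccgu
The seed of miR-141-3p is also that of miR-200a-3p, which is encoded elsewhere and was not removed. The seed of miR-200c-3p is that of miR-200b-3p and miR-429. The groups differ at 1 seed base, C4U, written as the base of miR-141-3p, its position from the 5′ end of the mature microRNA, and the base of miR-200c-3p. The hairpin of mir-141 lies at chr12:6964097-6964191 and that of mir-200c at chr12:6963699-6963766 on GRCh38, 330 bases apart.

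Each deposited value is a log2 ratio of 1 clone to 1 wild-type library, so a value of 1 is a 2-fold higher level in the clone. Expression levels, read counts and depth could not be read from the ratios, and a gene with few reads carries the weight of one with many. The microRNA itself was not measured, and the knockout could not be checked in these libraries. Ratios of set 1 and set 2 were unrelated row by row: across genes, clone 23 and clone 10 gave a Pearson r of 0.0102 and a Spearman rho of 0.00216. The set 2 values may therefore stand beside the wrong gene names. Set 1 was taken as primary, and values of clone 10 are given as listed. A further contrast of set 1, the double clone 55 over the mir-200c clone 11, also measures loss of mir-141, in cells without mir-200c, and shares no library with clone 23 over wild type. These are the 2 set 1 contrasts of mir-141 loss below. Labels name no separate cultures, and with 1 library a group the spread between libraries of a group was not measured within a set.

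In clone 23 most messages lay close to wild type. Of the 9245 entries, 75.2% had a ratio within 0.25 of 0, the SD across genes was 0.307, and the 5th and 95th percentiles were −0.38 and 0.43. Above 1 lay 54 entries, a background of 0.584%, and below −1 lay 52, or 0.562%. In the second contrast the SD was 0.357, with 88 entries above 1 and 76 below −1. Clone 10 had an SD of 0.396, with 140 above 1 and 89 below −1. No entry passed the threshold in either limma fit. Over both sets 0 entries (0%) had an adjusted p under 0.05, the smallest being 0.998, with 248 at an unadjusted p under 0.05. In set 1 alone, with both mir-200c backgrounds in an additive model, 0 (0%) passed, the smallest adjusted p was 0.0616 and 587 lay under 0.05 unadjusted. What follows is a description of values.

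Of the 106 entries beyond 1 in clone 23, 25 lay beyond 1 in the same direction in the second contrast, 23 lay between 0.25 and 1 in the same direction, 29 within 0.25 of 0 and 29 beyond 0.25 in the opposite direction. Of the last, 8 lay beyond 1 in the opposite direction, 1 that was above 1 in clone 23 and 7 that were below −1. ORM1, an acute-phase plasma protein with a near-identical copy, ORM2, lay at −2.06 and 1.84, and the copy at −2.02 and 1.75. The 25 were 14 genes above 1 in both contrasts, a background of 0.151% of all entries, and 11 below −1 in both, or 0.119%. Across all genes the contrasts had a Pearson r of 0.181 and a Spearman rho of 0.0836, a description over genes that are not independent replicates.

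**Figure D1:**
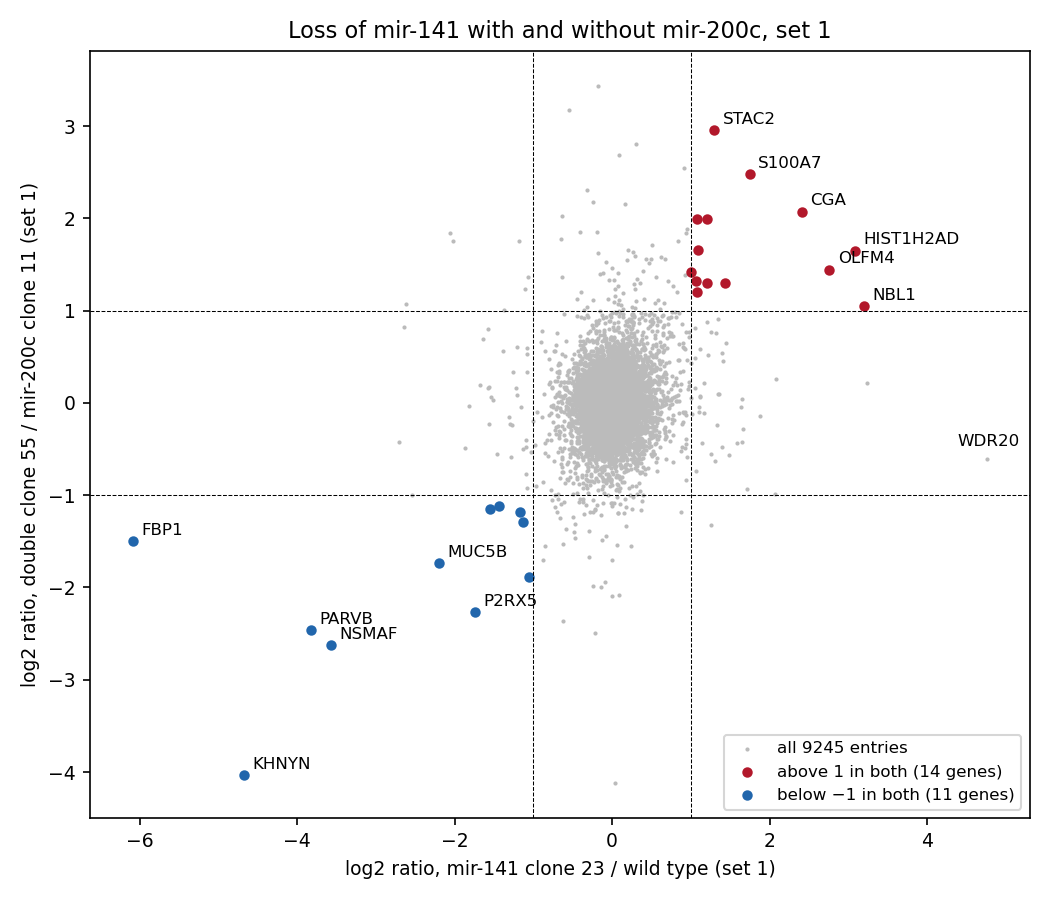
Each point is 1 of 9245 entries, with the log2 ratio of mir-141 clone 23 to wild type on the horizontal axis and that of double clone 55 to mir-200c clone 11 on the vertical axis, both of set 1; dashed lines mark 1 and −1. The 14 red genes lie above 1 and the 11 blue genes below −1 in both, KHNYN has the lowest vertical value of the blue genes, at −4.04, and WDR20, at 4.76 in clone 23, lies at −0.61 in the second contrast.

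KHNYN, a cofactor of the antiviral protein ZAP, had the smallest adjusted p of all entries in set 1. Its ratio was −4.68 in clone 23, 0.91 in the mir-200c clone 11 and −3.12 in the double clone 55, all over the wild type of set 1, and the double clone lay at −4.04 against the mir-200c clone. Both clones without mir-141 were thus low, and the clone that kept it was not. The set 1 estimate was −4.36 ± 0.196 (SE), with an adjusted p of 0.0616 in limma. That SE reflects the departure from additivity of the losses, not a spread between libraries of a group. In limma it was also drawn toward a variance shared over all entries, with 1 residual and 3.65 prior degrees of freedom. KHNYN shares 1102 exonic bases with SDR39U1 and 315 with CBLN3 on the other strand, and since the counting is not stated, reads of these genes cannot be told apart. Clone 10 was listed at −0.27.

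PARVB, parvin beta, links integrins to actin at focal adhesions. It lay at −3.82 in clone 23, 0.22 in the mir-200c clone and −2.24 in the double clone, −2.46 below the mir-200c clone. P2RX5, an ATP-gated ion channel that shares 1743 exonic bases with the readthrough gene P2RX5-TAX1BP3, lay at −1.75, −0.59 and −2.86 in the same order, and at −2.27 in the second contrast. NSMAF, an adaptor of neutral sphingomyelinase activation by the TNF receptor, lay at −3.57, −1.0 and −3.62, and at −2.62. For these 3 genes the clones without mir-141 were the lowest libraries. Their set 1 adjusted p in limma was 0.258 for P2RX5 and NSMAF, and PARVB had 0.312. Of the 3, NSMAF lies in a run of chromosome 8 genes described further on.

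Among the 14 higher genes, CGA, the alpha subunit shared by the glycoprotein hormones, had the smallest adjusted p, 0.186. It lay at 2.41 in clone 23, −0.01 in the mir-200c clone and 2.06 in the double clone, which is 2.07 in the second contrast. S100A7, psoriasin, a secreted calcium-binding protein of stressed epithelia, lay at 1.75, −0.43 and 2.05, and at 2.48 in the second contrast. STAC2, an adaptor of voltage-gated calcium channels, lay at 1.30, −0.78 and 2.17, and at 2.95. GTSF1, a factor of the piRNA pathway, lay at 1.43, −0.36 and 0.95, and at 1.30. In each of these 4 genes both clones without mir-141 were above wild type and the mir-200c clone was at or below it. CX3CR1, the fractalkine receptor, at 1.21 and 1.30, and BHLHE40, a clock and hypoxia transcription repressor, at 1.00 and 1.42 in the 2 contrasts, had mir-200c clone values of 0.31 and 0.07.

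Other genes of the 25 also departed from wild type in the mir-200c clone, so that their clone 23 value rests on a wild-type library from which all 3 clones differ. FBP1, the gluconeogenic fructose bisphosphatase, lay at −6.08 in clone 23, −7.01 in the mir-200c clone and −8.51 in the double clone, and the second contrast was −1.50. OLFM4, olfactomedin 4, a secreted glycoprotein, lay at 2.76, 2.98 and 4.43, with 1.44 in the second contrast. MUC5B, a gel-forming mucin, lay at −2.19, −1.98 and −3.72, with −1.74. HIST1H2AD, a replication-dependent histone with near-identical copies and therefore uncertain, lay at 3.09, 2.70 and 4.35, with 1.65. NBL1, a secreted BMP antagonist, lay at 3.20, 1.25 and 2.30, with 1.05, and shares 393 exonic bases with the readthrough gene MINOS1-NBL1.

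CD40, a TNF receptor family member, and CST6, cystatin M, differed in another way. CD40 was −1.44 in clone 23, 1.01 in the mir-200c clone and −0.10 in the double clone. CST6 was −1.05, 1.73 and −0.15. In both, the double clone lay near wild type, and the negative second contrast came with a mir-200c clone above wild type. The remaining genes were PLTP, PLXDC2, PDE4B, CAV1 and ZADH2, which lay between 1.07 and 1.21 in clone 23 and between 1.20 and 1.99 in the second contrast, and PODXL, COL18A1 and ACSF3, which lay between −1.56 and −1.13 and between −1.29 and −1.15. CAV1 is the scaffold of caveolae, PODXL a sialomucin of the apical membrane and COL18A1 a basement membrane collagen. In clone 10 as listed none of the 25 lay beyond 1: 9 of the 14 higher genes were above 0, in a range of −0.24 to 0.83, and 5 of the 11 lower genes were below 0, in a range of −0.37 to 0.48.

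**Figure D2:**
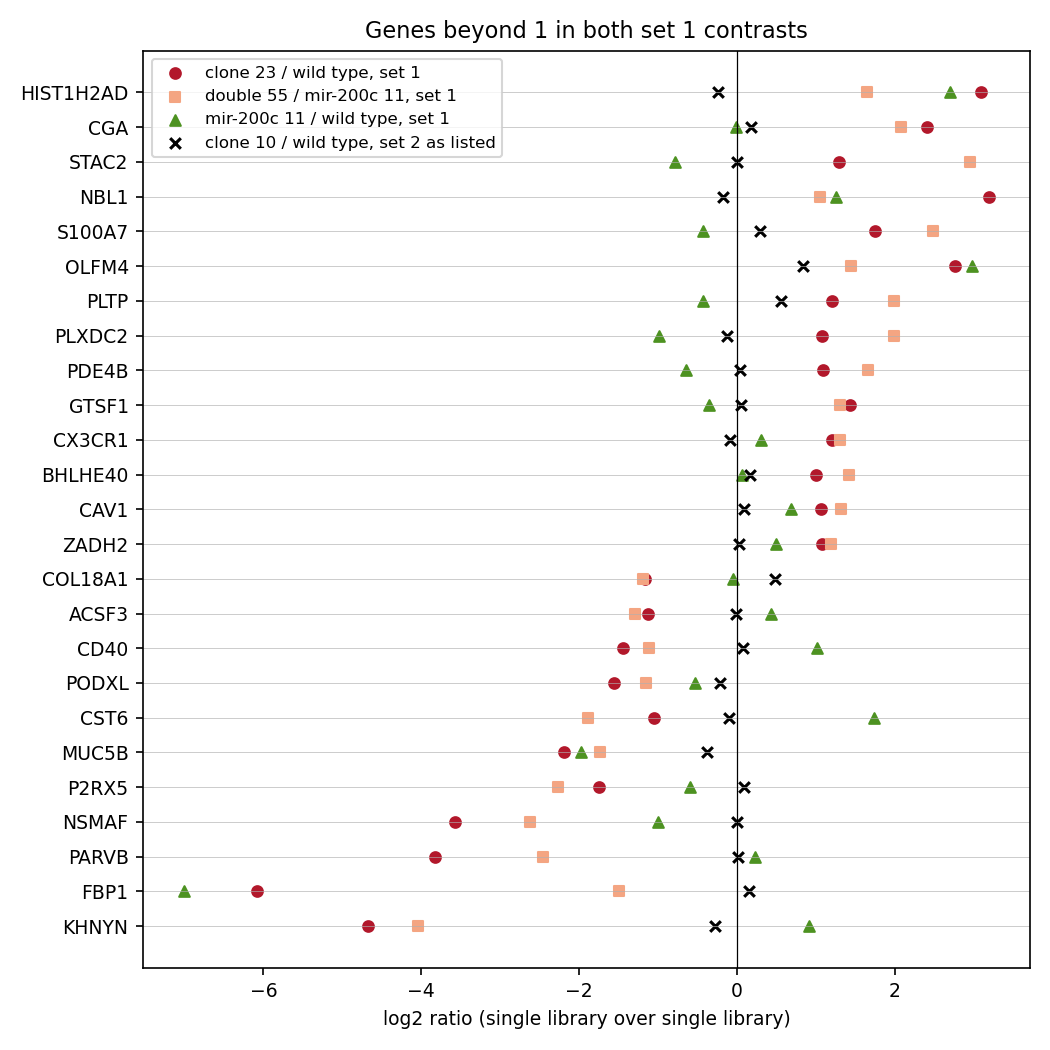
Log2 ratios of the 25 genes beyond 1 in both set 1 contrasts, ordered by the mean of the contrasts; circles show clone 23 over wild type, squares double clone 55 over mir-200c clone 11, triangles mir-200c clone 11 over wild type and crosses clone 10 over wild type as listed in set 2. Triangles lie near 0 for CGA and COL18A1 and beside the circles for FBP1, OLFM4 and MUC5B, and no cross lies beyond 1.

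Other ratios beyond 1 in clone 23 did not reach 1 in the same direction in the second contrast. Of the 106 entries, 66 of these others also lay beyond 0.5 in the same direction in the mir-200c clone. The 3 set 1 clones share 1 wild-type library. The genes named here were picked after their values were seen. WDR20, a partner of deubiquitinases, lay at 4.76 in clone 23, 5.11 in the mir-200c clone and 4.51 in the double clone, with −0.61 in the second contrast. TRAF6, a ubiquitin ligase of NF-kB signalling, lay at 1.88 in clone 23, 2.07 in the mir-200c clone and 1.93 in the double clone, with −0.14 in the second contrast. FN1, fibronectin, lay at 1.17 in clone 23, 1.23 in the mir-200c clone and 1.12 in the double clone, with −0.11 in the second contrast. Of these other entries, 6 stood apart in clone 23 while the mir-200c and double clones lay within 0.5 of wild type. PPARG, the lipid-sensing nuclear receptor, was −1.39 in clone 23, −0.28 in the mir-200c clone and 0.28 in the double clone, with 0.56 in the second contrast. FOLR1, a folate receptor, was −1.10, 0.24 and −0.24, with −0.48. CRISP3, a secreted cysteine-rich protein, was 1.22, −0.09 and 0.43, with 0.52. FOLR1 and CRISP3 thus kept their direction in the second contrast and PPARG did not.

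Neighbouring genes of several chromosomes were shifted together. From PIK3C3 to ADNP2 on the long arm of chromosome 18 (chr18:41955206-80147523, GRCh38), 48 of 49 measured genes were above 0 in clone 23, with a median of 0.57, which is 1.49-fold, and a range of −0.06 to 1.08. All 49 were above 0 in the second contrast, with a median of 0.78 and a range of 0.19 to 1.38. In the mir-200c clone 25 of the 49 were above 0 and the median was 0.00, and in the double clone all 49 were above 0, with a median of 0.87. The 69 measured genes from the start of the chromosome to TPGS2 had medians of 0.01 in clone 23 and −0.05 in the second contrast. PIK3C3 is the next measured gene after TPGS2, and the high values ran from it to ADNP2, the last measured gene of the chromosome, in both clones without mir-141. In clone 10 as listed the stretch had a median of 0.02, with 25 of 49 above 0. Gene copy number was not measured, and its part in these values was not tested.

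The highest gene of the chromosome 18 stretch in clone 23 was ZADH2, a prostaglandin reductase, at 1.08, followed by MALT1, the paracaspase of NF-kB signalling, at 1.05. SMAD2, the TGF-beta signal transducer, lay at 0.90 in clone 23 and 0.60 in the second contrast. ATP5A1, a subunit of ATP synthase, lay at 0.71 and 0.86. PHLPP1, an AKT phosphatase, lay at 0.45 and 0.65. The lowest was HSBP1L1, at −0.06. Where these genes appear in the lists below, their values stand within this stretch.

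On chromosome 14, the 9 genes from G2E3 to ARHGAP5 (chr14:30559123-32159728) were all below 0 in clone 23, with a median of −1.30. The medians were −1.44 in the mir-200c clone and −1.41 in the double clone, which share the wild type, and the second contrast, which does not hold it, had a median of 0.09. Windows of 20 neighbouring genes with a median beyond 0.25 in clone 23 formed 5 runs holding 199 genes. Besides the runs on chromosomes 18 and 14 there were 2 on chromosome 13, PSPC1 to POMP (29 genes) with medians of −0.24 in clone 23, −0.36 in the second contrast and −0.03 in the mir-200c clone, and STARD13 to SPRYD7 (46 genes) with −0.25, −0.27 and −0.12. The fifth was PCMTD1 to RDH10 on chromosome 8 (32 genes) with −0.23, −0.34 and −0.03. Outside the runs, 22 of the 25 genes and 95 of the 106 entries beyond 1 remained; KHNYN (chromosome 14 run, TM9SF1 to KIAA0391), NSMAF and ZADH2 lay inside.

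**Figure D3:**
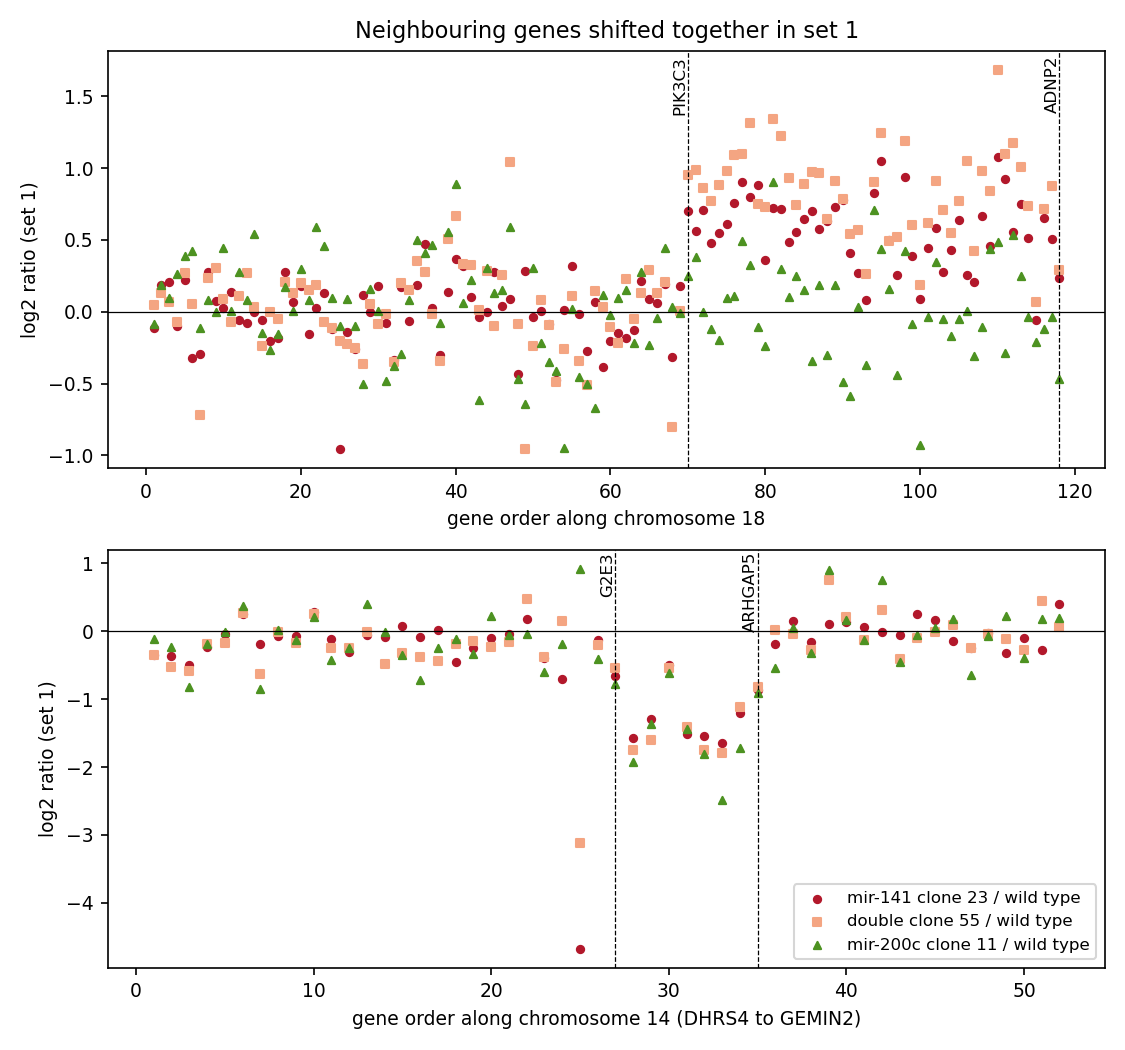
Log2 ratios of set 1 clones over wild type, each point 1 gene, against gene order along chromosome 18 (top) and along chromosome 14 from DHRS4 to GEMIN2 (bottom); circles show mir-141 clone 23, squares double clone 55 and triangles mir-200c clone 11. From PIK3C3 to ADNP2 the circles and squares sit at medians of 0.57 and 0.87 while the triangles sit around 0, and from G2E3 to ARHGAP5 all 3 clones lie below 0.

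Gene lists were described by how many members lay beyond 0.25 in the same direction in both contrasts. The lists and their members were chosen with earlier results of these data known, so their shares carry no test. Over all entries this held for 342 on the high side, or 3.7%, and for 307 on the low side, or 3.32%. Clone 23 had a median of −0.01 over all entries.

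A mixed list of apocrine, luminal and other secretory genes had the highest median in clone 23. It also holds the hormone subunit CGA and the enzymes FASN and GGT1. Of 19 measured members 8 lay high in both contrasts and 1 low, with medians of 0.34 in clone 23 and 0.38 in the second contrast. OLFM4, CGA, S100A7 and MUC5B were already described among the genes beyond 1 in both contrasts, so these counts are not separate from that result. The high members were OLFM4, CGA, S100A7, LCN2, PIP, CLU and the calprotectin subunits S100A8, at 0.35 and 1.30, and S100A9, at 0.34 and 0.91; the low one was MUC5B. S100A8 and S100A9 lay at −0.65 and −0.68 in the mir-200c clone and at 0.65 and 0.23 in the double clone over wild type. LCN2, lipocalin 2, an iron-siderophore binder, lay at 0.64 and 0.96. PIP, prolactin-induced protein of apocrine glands, lay at 2.07 and 0.26. In the mir-200c clone, which keeps mir-141, OLFM4 lay at 2.98, PIP at 1.69, LCN2 at 1.53 and CLU at 0.49. CGA lay there at −0.01 and S100A7 at −0.43.

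Immediate early and ERK-responsive genes had 7 of 22 members high in both and 0 low, with medians of 0.17 in clone 23 and 0.43 in the second contrast. They were the transcription factors NR4A1, ETV4, KLF2, JUNB and EGR1, the stress gene IER3 and the ERK phosphatase DUSP4. EGR1 lay at 0.51 in clone 23 and 1.71 in the second contrast, ETV4 at 0.30 and 1.60 and NR4A1 at 0.26 and 0.88. The second contrast of these 3 came with a low mir-200c clone: over wild type EGR1 lay at −1.45 in the mir-200c clone and 0.26 in the double clone, ETV4 at −1.07 and 0.52 and NR4A1 at −0.75 and 0.13. KLF2 lay at 0.85 and 0.64 and DUSP4 at 0.59 and 0.55, with 0.76 and 0.07 in the mir-200c clone. JUN, at 0.68 in clone 23 and −0.36 in the second contrast, did not follow in both.

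Cholesterol synthesis genes lay lower. Of 24 members 3 were low in both contrasts and 0 high, with medians of −0.12 and −0.21; 5 were above 0 in clone 23 and 6 in the second contrast. INSIG1, the sterol sensor that retains SCAP, lay at −0.45 and −0.80, IDI1, the isopentenyl diphosphate isomerase, at −0.30 and −0.43, and HMGCS1, the HMG-CoA synthase, at −0.26 and −0.69. Over wild type INSIG1 lay at 0.13 in the mir-200c clone and −0.67 in the double clone, IDI1 at −0.13 and −0.56 and HMGCS1 at 0.42 and −0.27. Other members went both ways over wild type in the mir-200c and double clones. There MVD lay at 0.63 and 0.14, MVK at 0.42 and −0.05 and SREBF2 at −0.40 and −0.61. In the contrasts of mir-141 loss MVD lay at 0.04 and −0.48, MVK at −0.11 and −0.47 and SREBF2 at −0.34 and −0.21. Fatty acid synthesis had a median of −0.09 in clone 23 and 0.01 in the second contrast.

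Markers of epithelial and mesenchymal state showed no shared direction. Of 33 genes of epithelial adhesion 1 was high in both contrasts and 2 were low, the tight junction genes MARVELD3 and TJP3, with medians of 0.01 in both. Over wild type MARVELD3 lay at 0.64 in the mir-200c clone and 0.10 in the double clone, and TJP3 at 0.04 and −0.26. PKP2, a desmosomal plaque protein, lay at −0.75 in clone 23 and −0.04 in the second contrast. Of 14 mesenchymal genes CAV1 and COL5A2 were high and COL5A1 low in both, and the medians had opposite signs, 0.31 in clone 23 and −0.15 in the second contrast. COL5A2, a fibrillar collagen chain, lay at 0.91 and 0.60. COL5A1 lay at −0.29 and −1.39, and over wild type at 1.29 in the mir-200c clone and −0.09 in the double clone. Luminal genes had 1 of 20 high in both and 0 low, and GATA3, a luminal transcription factor, lay at 0.54 and 0.24. Of 10 basal genes 7 were above 0 in clone 23, with a median of 0.30, and 5 in the second contrast, with a median of 0.02. The keratins KRT17, at 0.94 and −0.13, and KRT14, at 0.52 and −0.06, and the laminin chain LAMB3, at 0.61 and −0.48, were high in clone 23. They were also high in the mir-200c clone, at 2.20, 1.00 and 0.89. SFN, 14-3-3 sigma, was low in both, at −0.47 and −1.47, and 0 were high in both. Of the markers of other cell types 4 fibroblast, 3 blood and 3 endothelial genes were measured. The medians were 0.00 in clone 23 and 0.28 in the second contrast for fibroblast genes, −0.01 and 0.07 for blood genes and 0.10 and −0.10 for endothelial genes. Of the blood genes CD68 lay at 0.52 and 0.88, LCP1 at −0.13 and −1.48 and CORO1A at −0.01 and 0.07. Of the endothelial genes EGFL7 lay at −0.74 and −0.63, CDH5 at 0.10 and 0.61 and ESAM at 0.62 and −0.10. Members of each list thus went both ways; levels were not given, so neither the presence of these cells nor the identity of the line could be checked from markers, and their part in the results was not tested.

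Cell adhesion and the cytoskeleton held large single values with list medians near 0 in clone 23. Of 36 actin and focal adhesion genes PARVB and the tropomyosin TPM1 were low in both and 0 were high, with medians of 0.03 and −0.18; 22 were above 0 in clone 23 and 5 in the second contrast. TPM1 lay at −0.59 and −1.36, and over wild type at 0.84 in the mir-200c clone and −0.53 in the double clone. Other members with a negative second contrast were also raised in the mir-200c clone. Over wild type MYL9 lay at 3.20 there and 3.01 in the double clone, FLNA at 1.38 and 1.08, MYH10 at 1.21 and 0.12 and ZYX at 0.72 and 0.43. Not all members were raised, with LIMK2 at −0.13 and −0.30. Of 18 genes of integrins, laminins and basement membrane 13 were above 0 in clone 23 and 12 in the second contrast, with medians of 0.10 and 0.16. The integrin subunits ITGB6, at 0.50 and 0.41, and ITGA2, at 0.52 and 0.36, were high in both, and COL18A1 and ITGA5, the fibronectin receptor subunit, at −0.69 and −1.05, were low in both. In the mir-200c clone ITGB6 lay at 0.96, ITGA2 at 0.45, COL18A1 at −0.05 and ITGA5 at 0.44.

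Immune and stress lists were mixed. Of 14 antigen presentation genes 2 were low in both and 0 high, among them HLA-B, at −0.41 and −1.04, whose reads may be split with near-identical relatives. Over wild type HLA-B lay at 1.27 in the mir-200c clone and 0.23 in the double clone. PSMB8, an immunoproteasome subunit, had opposite signs in the contrasts, 0.88 and −1.19. Of 24 NF-kB genes LCN2 and IER3 were high and CD40 and NFKBIE low. NFKBIE lay at −0.37 and −0.46, and over wild type at 0.53 in the mir-200c clone and 0.07 in the double clone. Of 18 interferon-stimulated genes 0 were high and 0 low in both. Of 20 heat shock genes CLU was high and 3 small heat shock or co-chaperone genes were low, HSPB8 at −1.28 and −0.58, CRYAB at −0.70 and −1.18, and DNAJB4. Of 17 p53 targets 1 was high, the kinase PLK3 at 0.57 and 0.92, and 3 low, among them TNFRSF10B, a TRAIL receptor, at −0.80 and −0.33.

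Proliferation and housekeeping lists had few members beyond 0.25 in both contrasts. Of 42 mitosis genes NUF2, NDC80 and HMMR were low in both and 0 high, with medians of −0.07 and 0.09. NUF2 lay at −0.36 and −0.37 and NDC80, its partner in the kinetochore, at −0.29 and −0.61. Of 37 replication genes 2 were high and 1 low. Of 36 genes of respiration 1 was high and 2 were low. Of 50 ribosomal protein genes, 25 ERBB signalling genes, 24 genes of the unfolded protein response, 21 NRF2 genes and 17 genes of the microRNA machinery, 0 were high and 0 low in both. Of 22 TGF-beta and BMP genes NBL1 and SMAD2 were high in both and 0 low. Of 22 glycolysis and gluconeogenesis genes FBP1 was low in both and 0 were high. Of 15 Notch genes LFNG, a glycosyltransferase of Notch, was low and 0 were high. Of 22 histone genes HIST1H2AD and HIST1H2BC were high and 0 low, with medians of 0.04 in clone 23 and 0.30 in the second contrast. Of 21 Wnt, 22 YAP-TEAD, 19 hypoxia and 9 estrogen-responsive genes 0 were high and 0 low in both; their medians ran from −0.06 to 0.04 in clone 23 and from 0.11 to 0.16 in the second contrast. DKK1, a secreted Wnt inhibitor, lay at 1.26 and −0.56.

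**Figure D4:**
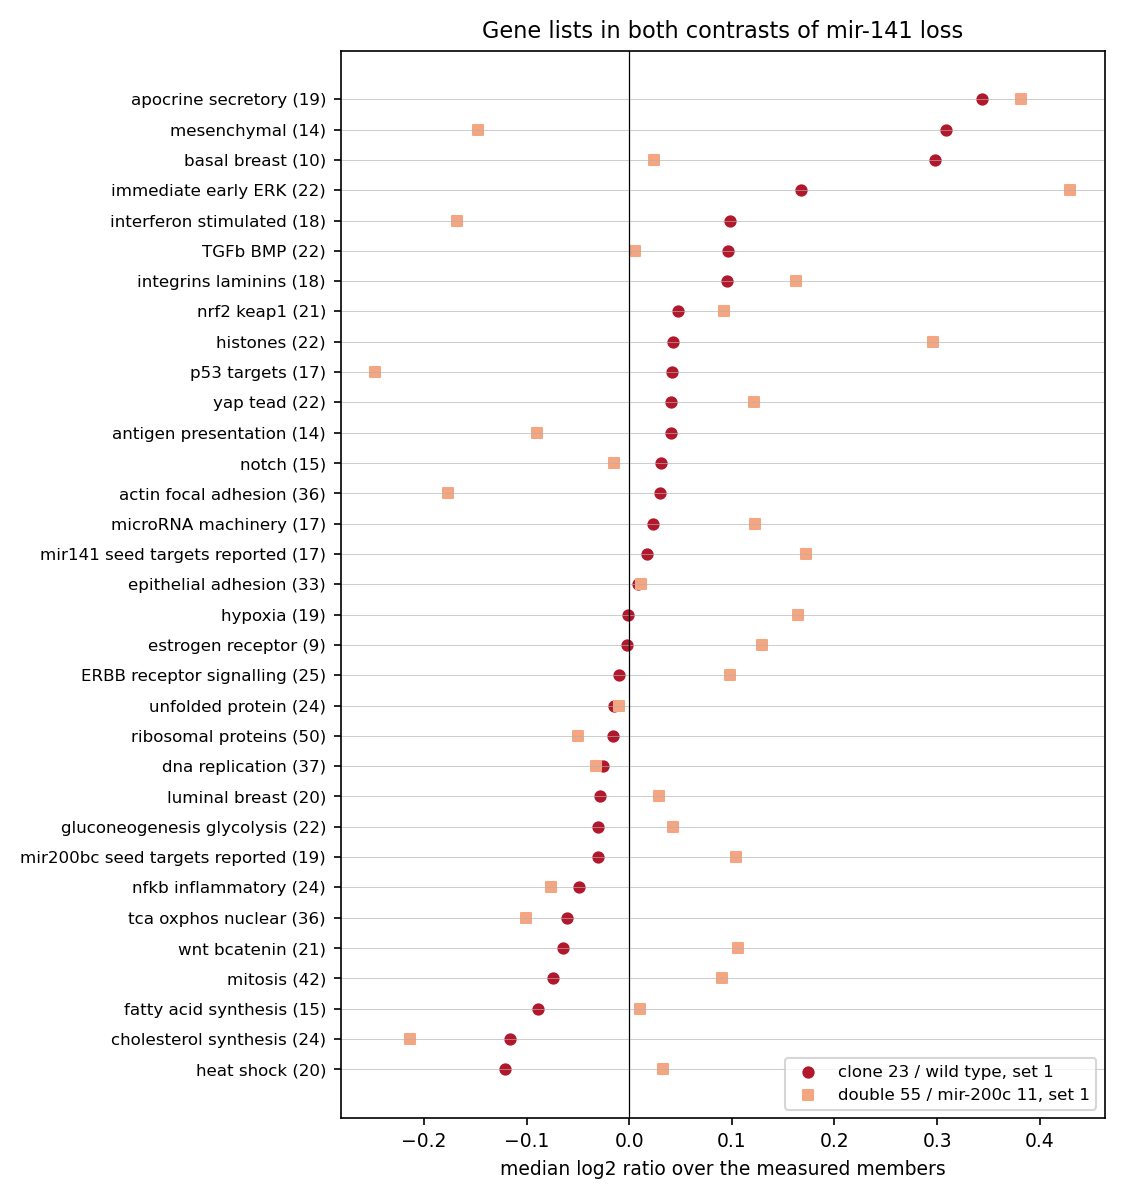
Median log2 ratio over the measured members of each gene list (number in brackets; lists with at least 9 members) in clone 23 over wild type (circles) and double clone 55 over mir-200c clone 11 (squares), both of set 1. Apocrine secretory genes lie to the right in both, at 0.34 and 0.38, cholesterol synthesis genes to the left in both, at −0.12 and −0.21, and mesenchymal genes have medians of opposite sign. Lists were chosen with earlier results of these data known.

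Messages with a miR-141-3p seed site were compared with messages that have none. A site was a 7- or 8-base match to the seed (CAGTGTT or AGTGTTA for 7 bases, both together, CAGTGTTA, for 8) searched on the strand of the message in 9190 entries, each with its longest annotated 3′ UTR. The median ratio in clone 23 was 0.003 for 2390 genes with a site and −0.0109 for 5619 genes with no site of miR-141-3p or miR-200c-3p, a difference of 0.0139. In the second contrast the difference was 0.0347, and in clone 10 as listed 0.0014. With 1 clone and 1 wild type in each of 2 sets, the smallest two-sided p an exact exchange of labels allows is 0.5, so no test was made.

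The difference varied with the kind of site. For 500 genes with an 8-base site it was 0.0288 in clone 23 and 0.0609 in the second contrast, for 721 genes with 2 or more sites 0.0171 and 0.0521, and for 1379 genes with a 6-base match alone −0.00614 and 0.0213. For 7-base sites it was 0.0115 and 0.0341 with CAGTGTT and 0.0106 and 0.00897 with AGTGTTA alone, and for 37 genes with 2 or more 8-base sites 0.0324 and 0.0437. The order of the site kinds was therefore not the same in both contrasts. The mir-200c clone, which keeps mir-141, differed over the same wild type by 0.0271 for genes with any site and by 0.0301 for those with an 8-base site, values at or above those of clone 23. Genes above 0 in both contrasts were 34% of those with an 8-base site, 27.3% of those with any site and 24% of those with no site. Genes with miR-200c-3p sites alone, 1181 in all, differed by −0.00511 and 0.0223. Seeds of microRNAs of other tissues were each compared with all genes lacking that seed, a wider reference than the genes with no site of miR-141-3p or miR-200c-3p. Their differences in clone 23 for 7- and 8-base sites were 0.0150 for miR-122-5p of liver, 0.0181 for miR-1-3p of muscle and 0.00424 for miR-9-5p of brain, and 0.00637, 0.0192 and 0.0292 in the second contrast. The first 2 lay above the 0.0139 of miR-141-3p in clone 23 and miR-9-5p below it, and all 3 lay below its 0.0347 in the second contrast. The shares above 0 in both contrasts were 26.3% for miR-122-5p, 27.7% for miR-1-3p and 27.3% for miR-9-5p site genes, near the 27.3% for any miR-141-3p site. Site genes have longer 3′ UTRs, with a median of 2842 bases against 780 for genes with no site. Within UTRs of 30 to 557 bases 10 genes with an 8-base site differed by 0.144 in clone 23 and −0.0738 in the second contrast, within 558 to 1309 bases 45 genes with an 8-base site differed by 0.145 and 0.122, within 1310 to 2631 bases 127 genes by 0.00574 and 0.0599, and within longer ones 318 genes by 0.0358 and 0.0273.

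**Figure D5:**
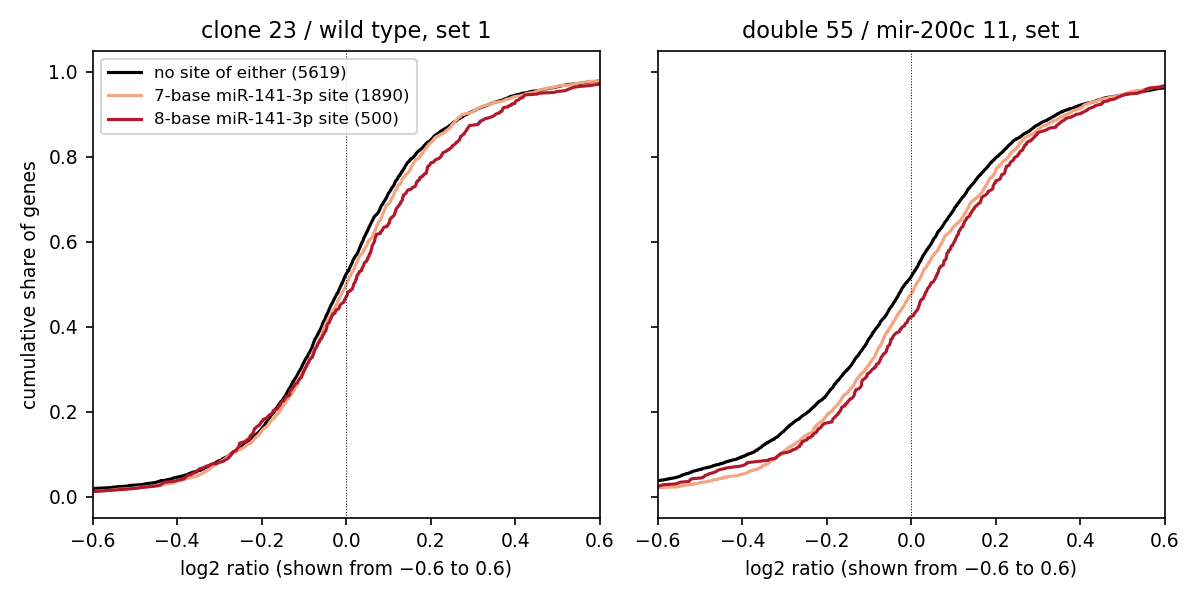
Cumulative share of genes against the log2 ratio in clone 23 over wild type (left) and double clone 55 over mir-200c clone 11 (right), for genes with no site, with a 7-base and with an 8-base miR-141-3p site. The curves of site genes lie slightly to the right, by medians of 0.0288 and 0.0609 for 8-base sites.

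The 8-base site genes with the highest mean of both contrasts are shown with their site. They were picked from 500 8-base site genes for that mean, so their higher level follows from the choice. Each line gives 30 bases of the 3′ UTR, 5′ to 3′ on the strand of the message, read from GRCh38, with the match in capitals:
RFTN1, chr3:16316598-16316627, minus strand: gtcattaatgaccCAGTGTTAgaatgcaag
ZNF644, chr1:90916452-90916481, minus strand: attatgttttttgCAGTGTTAccagaatca
MAN1C1, chr1:25784350-25784379, plus strand: tccctttgggcctCAGTGTTAcaaattact
SOWAHC, chr2:109616773-109616802, plus strand: tattaaggtacacCAGTGTTAaggtacatt
EPHA2, chr1:16124445-16124474, minus strand: gtttctattctgtCAGTGTTAaagattttg
ZNF778, chr16:89235672-89235701, plus strand: cagccttggggagCAGTGTTAtgataccaa
RFTN1, a lipid raft protein, lay at 0.67 in clone 23 and 1.56 in the second contrast. EPHA2, an ephrin receptor kinase, lay at 0.63 and 0.60, and ZNF778, a zinc finger gene, at 0.62 and 0.61, nearly the same in both. MAN1C1, a Golgi mannosidase, lay at 0.95 and 0.47, ZNF644 at 1.05 and 0.48 and SOWAHC at 0.41 and 0.89. In the mir-200c clone, which keeps mir-141, MAN1C1 and ZNF644 were also high, at 0.74 and 0.67. RFTN1 lay there at −0.32, SOWAHC at −0.14, EPHA2 at 0.01 and ZNF778 at −0.03. The other 4 of the 10 were RANBP6, at 1.63 and −0.04, and IER3IP1, at 0.76 and 0.98, SMAD2 and ZCCHC2, which lie in the chromosome 18 run. RANBP6 lay at 1.39 in the mir-200c clone. ZCCHC2 lay at 0.09 in clone 23 and 1.12 in the second contrast, with −0.93 in the mir-200c clone. Of the 25 genes beyond 1 in both contrasts 24 had a 3′ UTR, 3 had a miR-141-3p site and 2 an 8-base one. The last were KHNYN and PARVB, both far below 0 in clone 23. Among all 9190 entries with a 3′ UTR, 2390 had a site and 500 an 8-base one.

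Of 17 measured genes reported as targets of the miR-141-3p seed, EPHA2 and PHLPP1 were high in both contrasts and STAT5A, a prolactin signal transducer, was low, at −0.48 and −1.40; the medians were 0.02 and 0.17, and 9 and 13 members were above 0. Over wild type STAT5A lay at 1.32 in the mir-200c clone and −0.08 in the double clone. SIRT1, the deacetylase, lay at 0.31 and 0.17 in the contrasts. Of 19 genes reported for the seed of miR-200b, miR-200c and miR-429, 0 were high and 0 low in both.

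Genes beside the edited locus stayed within 0.25 of wild type in clone 23. PTPN6, the phosphatase SHP-1, which ends 2.38 kb before the mir-200c hairpin, lay at 0.24 in clone 23 and −0.16 in the second contrast. C12orf57 lay at 0.17 and 0.16 and ATN1, atrophin 1, at 0.19 and 0.23. LPCAT3, a lysophospholipid acyltransferase that lies 12 kb beyond the mir-141 hairpin, was at −0.05 and 0.28. Within 150 kb, SPSB2 had the largest difference between the contrasts, 0.21 and −0.92, with the mir-200c clone at 1.03.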

How the data were processed

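The authors deposited log2 ratios, 1 column for each of the 6 knockout clones, taken over wild-type cells of the same set. TopHat2, with no version stated, and GRCh37.p10 are named in the submitters' processing notes. Read counting, scaling and filters are not given in the sources used here. Depth is unknown. Columns of other samples numbered 0. The second contrast was computed as the double clone's ratio minus that of the mir-200c clone.

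With each wild type set to 0, limma 3.58.1 in R 4.3.3 was fitted to all 9245 entries (Benjamini-Hochberg adjusted p under 0.05), over both sets with the set as block (3 residual degrees of freedom) and in set 1 as an additive model of both losses (1). The scripts were tested on simulated data. The set pairs the libraries because every ratio was taken within it. Entries were matched to GENCODE 29 (GRCh38), 9009 by RefSeq accession and 216 by symbol, with 20 unmatched; coordinates are on that build, and the files give none.

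Named genes were those beyond 1 in both set 1 contrasts, up to 4 of each of 37 lists with the largest ratio in clone 23 together with members beyond 0.25 in both contrasts, the 10 best 8-base site genes, the ends of shifted runs and the neighbours of the locus. Members and lists were chosen with earlier results of these data known, and the run threshold, the 2 stretches on chromosomes 18 and 14 and other genes marked as such were chosen after the values were seen, so they carry no test. Alternatives covered the block, centring, thresholds, site class and left-out libraries. Some genes that the rule names are not reported here.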

Additional observations from a re-analysis of the deposited data

How the results depend on the processing

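The count of 0 calls over both sets held with no replicate block (0 calls, 272 entries at an unadjusted p under 0.05), with median centring, robust moderation and the mir-141 ratios alone, and the range was 0 to 0 without each mir-141 library; without clone 23 the smallest adjusted p was 0.064, from 0.998. The set 1 count of 0 held under its 4 alternatives, with smallest adjusted p from 0.0615 to 0.901; it could not be fitted without a library, since no residual degree of freedom remains. At a log2 threshold of 0.58 the 106 entries beyond 1 in clone 23 became 392 and the 25 genes in both contrasts 111; in set 2 as listed the counts were 229 and 38. The site difference of 0.0139 was 0.0288 with 8-base sites and 0.0347 in the double clone over the mir-200c clone, from 0.0014 to 0.0164 under the other alternatives. Leaving out genes in shifted runs, an alternative chosen after seeing the data, gave 95 entries, 22 genes and a site difference of 0.0128. Every fit over both sets joins the sets row by row, so its 0 calls carry the doubt about the set 2 gene names. Depth, which is unknown, limits every ratio of a gene with few reads.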
